A study of Homo sapiens with 15 samples.

Results

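The 55 genes described here encode proteins that carry a cell into mitosis, attach its chromosomes to the spindle and separate them. They were taken as a fixed list of gene symbols, matched by GENCODE to the Ensembl identifiers of the table of raw counts. All 55 are among the 57272 genes of that table and all 55 passed the filter on low counts, which left 15799 genes. For the description they were grouped into 8 roles, namely mitotic entry, the spindle checkpoint, anaphase and cohesion, the chromosomal passenger complex, CENP-A with the inner kinetochore, the outer kinetochore with its corona, spindle motors with the midzone, and condensin with chromosome structure.

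RNA was sequenced from MRC-5, a human fibroblast line that came from fetal lung and divides only a limited number of times (the study calls the cells primary), grown at 5% oxygen. There were 5 conditions of 3 libraries each. Young cells, collected at population doubling (PD) 30, carried either an empty lentiviral vector with GFP and a control siRNA (young_empty) or the same vector with TRF2 and the control siRNA (young_TRF2). A further young group carried the empty vector and received an siRNA against LMNB1 in place of the control (young_siLMNB1). Senescent cells, which had stopped dividing, carried the empty vector at PD 71 (senescent_empty) or TRF2 at PD 75 (senescent_TRF2) and also received the control siRNA. Young cells were collected 4 days after the siRNA, and the senescent TRF2 cells had expressed TRF2 for about 25 PD, so the vector acted for unequal times in the 2 states. TRF2, encoded by TERF2, is a protein of the telomere cap, and lamin B1, encoded by LMNB1, is a filament protein of the nuclear lamina. The series is a study of gene expression in replicative senescence, the lasting arrest that cells enter after many divisions.

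Mitotic genes are transcribed late in the cell cycle, and an arrested cell keeps most of them silent. CDK1 with its cyclins starts mitosis, the kinetochore built on CENP-A chromatin binds microtubules, and the spindle checkpoint holds back the anaphase-promoting complex until every chromosome is attached. The DREAM complex represses many of these genes in resting cells through a promoter element called the CHR, and MYBL2 and FOXM1 activate them in cycling cells, often together with the factor NF-Y at a nearby CCAAT box. In bulk RNA, fewer dividing cells and less RNA per cell cannot be told apart, and this holds for every value below.

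The 250 bases before and 50 bases after the start of each gene were read for 47 of the 55 genes, and for 27305 genes in all, from a table of RefSeq promoters (GRCh38.p14). The CHR, spelled TTTGAA and searched on both strands, occurred in 30 of the 47 (63.8%, Wilson 95% interval 49.5 to 76.0), and in 18.2% of all 27305 genes. A gene with several listed starts counted once, where any of them had a match. The CCAAT box, spelled CCAAT, occurred in 35 of the 47 (74.5%), against 39.7% of all. The variant TTTAAA was found in 29.8% of the 47 and in 14.5% of all, and an E2F-type element, which was spelled as TTCCCGC with the alternative spellings TTGGCGC and also TTCGCGC, in 29.8% and 13.1%. Matches of different motifs were allowed to share bases, as ATTGG and TTTGAA can. With only the bases before the start, the share with TTTGAA was 44.7% of the 47 and 16.1% of all. A match is a string of letters, not a binding site.

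For pairs of motifs, only the TTTGAA nearest the start was used, among those lying wholly before it. Pairs with a TTTGAA farther away, as in MKI67 and TOP2A, or with one crossing the start, as in SPC25, were left out. In 12 of the 47 genes a CCAAT box on either strand lay 20 to 60 bases before the TTTGAA used. These 12 were 25.5% (Wilson 95% interval 15.3 to 39.5), against 1.08% of all genes with a promoter. The windows below show this pair in 6 of them, chosen to span the range of responses described further on: CCNB2, CDC20, CDK1 and PLK1, whose level fell in senescence and with siLMNB1, NCAPD2, which fell less, and KIF18A, which did not pass the test with siLMNB1. They are written 5′ to 3′ along the gene, with the CCAAT box (ATTGG where it lies on the other strand) and the CHR in capitals.
CCNB2, chr15:59105087-59105128, plus strand: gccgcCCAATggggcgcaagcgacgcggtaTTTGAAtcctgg
CDC20, chr1:43358876-43358927, plus strand: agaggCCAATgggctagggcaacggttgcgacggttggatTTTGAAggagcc
CDK1, chr10:60778427-60778476, plus strand: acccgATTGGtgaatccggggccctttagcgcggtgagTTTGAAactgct
PLK1, chr16:23678811-23678871, plus strand: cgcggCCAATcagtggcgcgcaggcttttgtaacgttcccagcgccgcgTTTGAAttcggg
NCAPD2, chr12:6493927-6493968, plus strand: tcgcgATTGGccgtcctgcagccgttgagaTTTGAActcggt
KIF18A, chr11:28108157-28108206, minus strand: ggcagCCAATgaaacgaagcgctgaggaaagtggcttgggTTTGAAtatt
The pair and its order were the rule by which the 12 genes were found, and the 6 were picked from these by their responses.

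Levels are given below as normalised counts, the counts of each library scaled by TMM to a library of average size. Changes are log2 fold changes from edgeR's quasi-likelihood test, with the standard error (SE) and a p adjusted by Benjamini-Hochberg over the 15799 genes. A gene was called where the adjusted p was under 0.05 and the log2 fold change was 1 or more in size for senescence, or 0.58 or more for siLMNB1 and for TRF2 within one state. Total counts ranged from 26725885 to 43116046 per library. LMNB1 fell with its siRNA, from 1964, 1916 and 1887 to 76.0, 93.6 and 88.4 normalised counts, and TERF2 stood at 4127, 9882 and 4798 in young_TRF2 against 771, 821 and 705 in young_empty, so both targeted genes moved as the labels say. LMNB1 was also low in senescent_empty, at 182, 166 and 148. The least abundant of 10 fibroblast markers had at least 543 normalised counts in every library. Of 14 markers of epithelial, endothelial and blood cells, 11 did not pass the filter on low counts, and CDH5, PTPRC, CD3E, SFTPC, CD68, CDH1 and PECAM1 among them had at most 12 counts in a library. The keratins KRT5 and KRT14 were an exception in 1 library, young_empty replicate 1, with 209 and 111 counts, and had at most 10 and 1 in the others. Without that library 54 of the 55 genes described here were still called lower in senescent_empty and 50 with siLMNB1. The other markers passed at low levels. EPCAM, an epithelial marker, was called higher with siLMNB1, at 24.3, 29.9 and 27.6 against 7.86, 9.46 and 10.8 normalised counts. The endothelial marker VWF was called higher in senescent_empty, at 76.6, 95.4 and 101 against 30.3, 19.9 and 26.4, and lower in senescent_TRF2 than there, at 59.5, 41.0 and 55.1. KDR, also endothelial, was called lower in senescent_TRF2, at 4.10, 8.20 and 12.8, relative to young_TRF2 (log2 fold change -2.05). The part of these markers in the results was not tested. All 6 libraries from senescent cells are labelled as reanalysed data of another deposit, so state and deposit cannot be told apart. The study harvested each condition in triplicate and calls its replicates biological in a plot of young and senescent counts, but neither it nor the labels say that they were separate cultures, so p-values measure only the spread between these libraries.

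The summed level of the 55 genes was lowest in senescent cells. As a percentage of the young_empty mean, CPM, the counts of each gene scaled to TMM library size, summed over the 55 genes came to 102.6, 99.6 and 97.8 in young_empty and to 83.1, 92.8 and 86.6 in young_TRF2. They came to 49.6, 49.1 and 51.1 in young_siLMNB1. The senescent libraries gave 19.1, 18.0 and 16.9 with the empty vector and 12.5, 12.6 and 13.8 with TRF2. The order young_empty, young_TRF2, young_siLMNB1, senescent_empty, senescent_TRF2 therefore held library by library, with no overlap between neighbours.

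**Figure D1:**
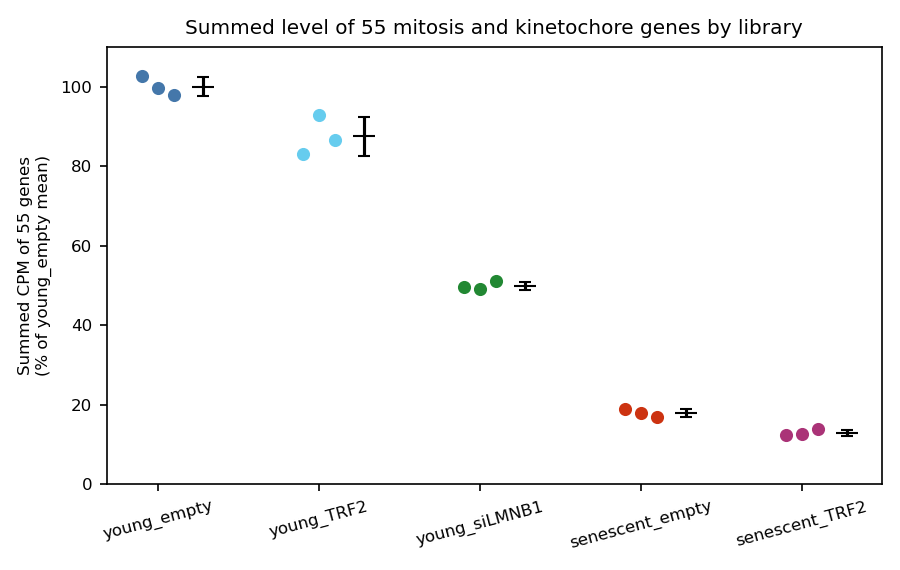
Summed CPM of the 55 genes in each of the 15 libraries, as a percentage of the young_empty mean, with points for libraries and the mean ± SD (n = 3) beside them. The means were 87.5 ± 4.93 in young_TRF2, 49.96 ± 1.05 in young_siLMNB1, 18.0 ± 1.07 in senescent_empty and 13.0 ± 0.725 in senescent_TRF2.

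The first comparison set senescent_empty against young_empty. All 55 had an adjusted p under 0.05 and were lower in senescent_empty, and 54 of them passed both thresholds, against 11.8% of all genes called lower and 16.7% called higher (31.9% were lower on the adjusted p alone). The median log2 fold change of the 55 was -2.73, which is 15.1% of the young level, beside 0.02 over all genes. In all 55 every senescent library lay below every young one, which held for 32.8% of all genes. The roles were alike in their medians, from -2.44 in the inner kinetochore to -3.17 in the spindle motors, and 46 of the 55 lay between -2 and -3.5. The median of the spindle motors takes in PRC1 and NUSAP1, for which no fold is given below.

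**Figure D2:**
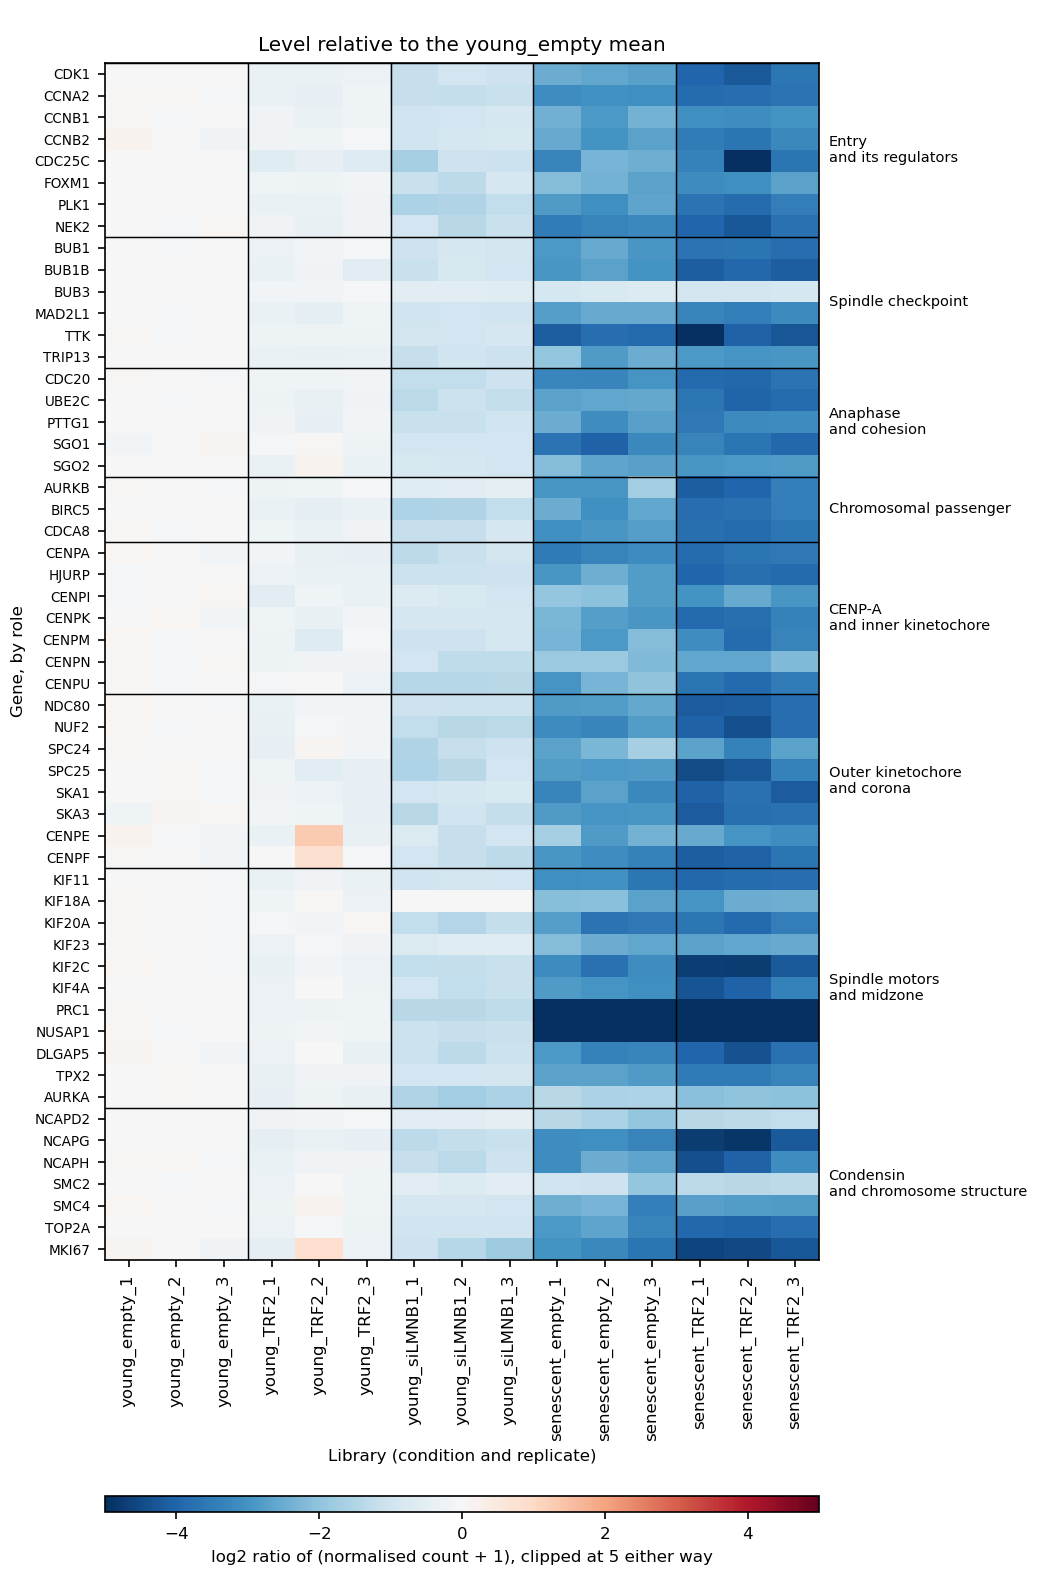
log2 ratio of the normalised count plus 1 to the young_empty mean plus 1, for the 55 genes (rows, by role) in the 15 libraries (columns), with the colour scale clipped at 5. The senescent columns are blue in nearly every row, BUB3, SMC2 and NCAPD2 are palest there, KIF18A is white with siLMNB1, and CENPE, CENPF and MKI67 are red in 1 young_TRF2 library.

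Among the 8 genes of mitotic entry all 8 were called. CCNB1, the main mitotic cyclin, stood at 3386, 3054 and 3238 normalised counts in young_empty and at 606, 440.1 and 624 in senescent_empty (log2 fold change -2.53, SE 0.12, adjusted p = 2.33e-11). CCNA2, cyclin A, which acts from S phase into mitosis, went from 2400.5, 2422 and 2149.9 to 267, 282 and 279 (log2 fold change -3.07, SE 0.09, adjusted p = 1.07e-13). In both the lowest young library was more than 4 times the highest senescent one. FOXM1, the transcription factor of the group, fell least within it, from 1869, 1842 and 1787 to 402, 360.2 and 289 (log2 fold change -2.39, SE 0.15, adjusted p = 9.20e-10). NEK2, a kinase of centrosome separation, fell most, from 642, 624 and 694 to 56.3, 63.2 and 69.9 (log2 fold change -3.36, SE 0.15, adjusted p = 1.62e-11). PLK1, a kinase needed throughout mitosis, lay between them at -2.84 (SE 0.13, adjusted p = 2.47e-11).

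In the spindle checkpoint 5 of the 6 genes were called, and the other was the 1 exception among all 55. TTK, the kinase that starts checkpoint signalling, went from 751, 695 and 702 normalised counts in young_empty to 40.7, 50.1 and 47.0 in senescent_empty (log2 fold change -3.96, SE 0.17, adjusted p = 1.07e-11). MAD2L1, which with BUB1B blocks CDC20, went from 1414, 1350.3 and 1439 to 205, 243 and 243 (log2 fold change -2.60, SE 0.11, adjusted p = 6.00e-12). TTK thus lost more than MAD2L1, and both groups of libraries lay far apart. BUB3, which brings BUB1 and BUB1B to the kinetochore, stood at 4283, 4182 and 4331 and at 2339.8, 2528 and 2643 (log2 fold change -0.77, SE 0.07, adjusted p = 9.69e-08). Its senescent libraries also lay below all young ones, but its fall was under the threshold of 1, and its level remained at 58.7% of the young one.

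All 5 genes of anaphase and cohesion and all 3 of the chromosomal passenger complex were called. CDC20, which activates the anaphase-promoting complex, went from 2375, 2321 and 2203 to 239, 231 and 297 (log2 fold change -3.16, SE 0.11, adjusted p = 1.16e-12). PTTG1, securin, which that complex destroys to free the cohesin-cutting protease, went from 1789.7, 1829 and 1799 to 323, 209 and 277 (log2 fold change -2.74, SE 0.14, adjusted p = 1.15e-10). The shugoshins, which protect centromeric cohesin, marked both ends of this role with -3.69 (SE 0.23) for SGO1 and -2.49 (SE 0.16) for SGO2. SGO1 had only 10.8, 8.35 and 15.7 normalised counts in the senescent libraries and 15.8% of its exonic bases overlap an antisense gene. Of the passenger complex, BIRC5, survivin, went from 2952, 2917 and 2847 to 524, 346 and 484 (log2 fold change -2.68, SE 0.14, adjusted p = 1.20e-10), and CDCA8, borealin, changed by -2.89 (SE 0.12, adjusted p = 6.53e-12). AURKB, its kinase, stood at 729.8, 695 and 660.3 in young_empty and at 91.0, 91.8 and 209.7 in senescent_empty (log2 fold change -2.39, SE 0.23, adjusted p = 2.21e-07). Replicate 3 of AURKB was more than 2 times the others and still below every young one.

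At the kinetochore, all 7 inner and all 8 outer genes were called. CENPA, the histone variant that marks the centromere, went from 419, 393 and 349.9 to 32.3, 37.0 and 42.8 (log2 fold change -3.36, SE 0.16, adjusted p = 5.28e-11), the largest fall of the inner genes. Its loading factor HJURP went from 848, 914 and 911 to 119, 162 and 126 (log2 fold change -2.72, SE 0.11, adjusted p = 8.52e-12). CENPN, which binds CENP-A nucleosomes, fell least, from 656, 588 and 654 to 174, 173 and 137 (log2 fold change -1.98, SE 0.14, adjusted p = 3.66e-09). The 4 subunits of the NDC80 complex, the main microtubule contact, ranged from -3.07 for NUF2 to -2.16 for SPC24, with NDC80 itself at -2.73 (SE 0.12, adjusted p = 2.30e-11). CENPF, a corona protein, went from 2005, 1954 and 1753 to 255, 223 and 184 (log2 fold change -3.11, SE 0.21, adjusted p = 3.58e-09).

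All 11 genes of spindle motors and midzone and all 7 of condensin and chromosome structure were called. TPX2, a spindle assembly factor that activates AURKA, went from 3822, 4006 and 3835 to 612, 612 and 548 (log2 fold change -2.72, SE 0.09, adjusted p = 8.63e-13), and KIF23, a midzone kinesin of cytokinesis, from 2133, 2053 and 1889.9 to 454, 363 and 335 (log2 fold change -2.40, SE 0.11, adjusted p = 3.60e-11). AURKA, the spindle pole kinase, fell least of the role, from 2060.3, 2138 and 2017 to 783, 688 and 711 (log2 fold change -1.51, SE 0.09, adjusted p = 6.11e-10). TOP2A, which untangles sister DNA, was the most abundant of the last role and went from 6868, 6719 and 6548 to 909, 1085 and 669.9 (log2 fold change -2.92, SE 0.13, adjusted p = 2.39e-11). MKI67, the proliferation marker that coats mitotic chromosomes, went from 2194, 1976 and 1769 to 249, 211 and 155 (log2 fold change -3.27, SE 0.31, adjusted p = 1.46e-07).

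The 5 subunits of condensin I, the complex that compacts mitotic chromosomes, fell unequally. NCAPG was at -3.18 (SE 0.13), NCAPH at -2.71 (SE 0.22, adjusted p = 1.97e-08) and SMC4 at -2.66 (SE 0.20), against -1.63 (SE 0.11) for NCAPD2 and -1.26 (SE 0.17) for SMC2. SMC2 stood at 1608, 1488 and 1608 in young_empty and at 782, 769 and 410.1 in senescent_empty, and its senescent_empty replicate 3 was the lowest. That library also had the steepest relation of level to GC content, 0.82 on the log2 scale per 10 points of GC against 0.46 to 0.51 in the other 5 senescent libraries, and the 55 genes had a median GC content of 43.4% against 47.6% over all genes. With offsets for GC content and length 53 of the 55 were called, SMC2 was at -0.71 and no longer called, and the median of the 55 was -2.55.

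The senescent libraries held almost no counts of PRC1 and NUSAP1. PRC1, which bundles the microtubules of the midzone, had 2, 1 and 4 raw counts in senescent_empty and 0, 1 and 0 in senescent_TRF2, against 2146, 2470 and 1904 in young_empty. NUSAP1, a spindle microtubule binder, had 7, 7 and 8 and 4, 10 and 12 against 1258, 1344 and 1090. Both lie far outside the range of the other 53 genes, whose largest fall was -3.96. They are also the 2 of the 55 that share most of their exonic bases with other genes, 61.9% for PRC1 and 86.8% for NUSAP1. An unnamed protein-coding gene on the same strand (ENSG00000284946 and ENSG00000285920) covers 57.6% and 81.4% of them, and neither has a row in the table. How reads on shared bases were assigned in each deposit was not tested, so no fold is given for these 2 genes. The other 8 that share over 10% included NCAPG (33.7%), CENPN (23.1%) and SMC4 (22.0%), and these 8 did not stand outside the range of the rest. Of the 33 genes that share no exonic base, 32 were called.

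The second comparison asked the same in cells that expressed TRF2. All 55 genes again had an adjusted p under 0.05 and all senescent libraries below all young ones, and 54 were called lower, against 12.1% of all genes. Of all genes, 30.1% were lower on the adjusted p alone, 36.6% had all senescent libraries lower, and 11.9% were called higher. The median was -3.53, or 8.68% of the young level. The exception was again BUB3, at 3915, 3931 and 4075 normalised counts in young_TRF2 and 2244, 2273 and 2315 in senescent_TRF2 (log2 fold change -0.80, SE 0.07, adjusted p = 6.32e-08). CCNA2 went from 1842, 1751 and 1976 to 162, 164 and 178 (log2 fold change -3.46, SE 0.09, adjusted p = 3.15e-14). CDC20 went from 1989, 1965 and 2115 to 155, 149 and 177 (log2 fold change -3.66, SE 0.11, adjusted p = 2.29e-13), and TPX2 from 2967, 3467 and 3453 to 332, 335 and 388 (log2 fold change -3.23, SE 0.10, adjusted p = 1.20e-13). For each of these 3 the fall was larger than with the empty vector, which held in sign for 51 of the 55 genes. The 2 comparisons share no library, and over the 53 genes without PRC1 and NUSAP1 their log2 fold changes had a Spearman rho of 0.81, a description across genes measured in the same senescent deposit.

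**Figure D3:**
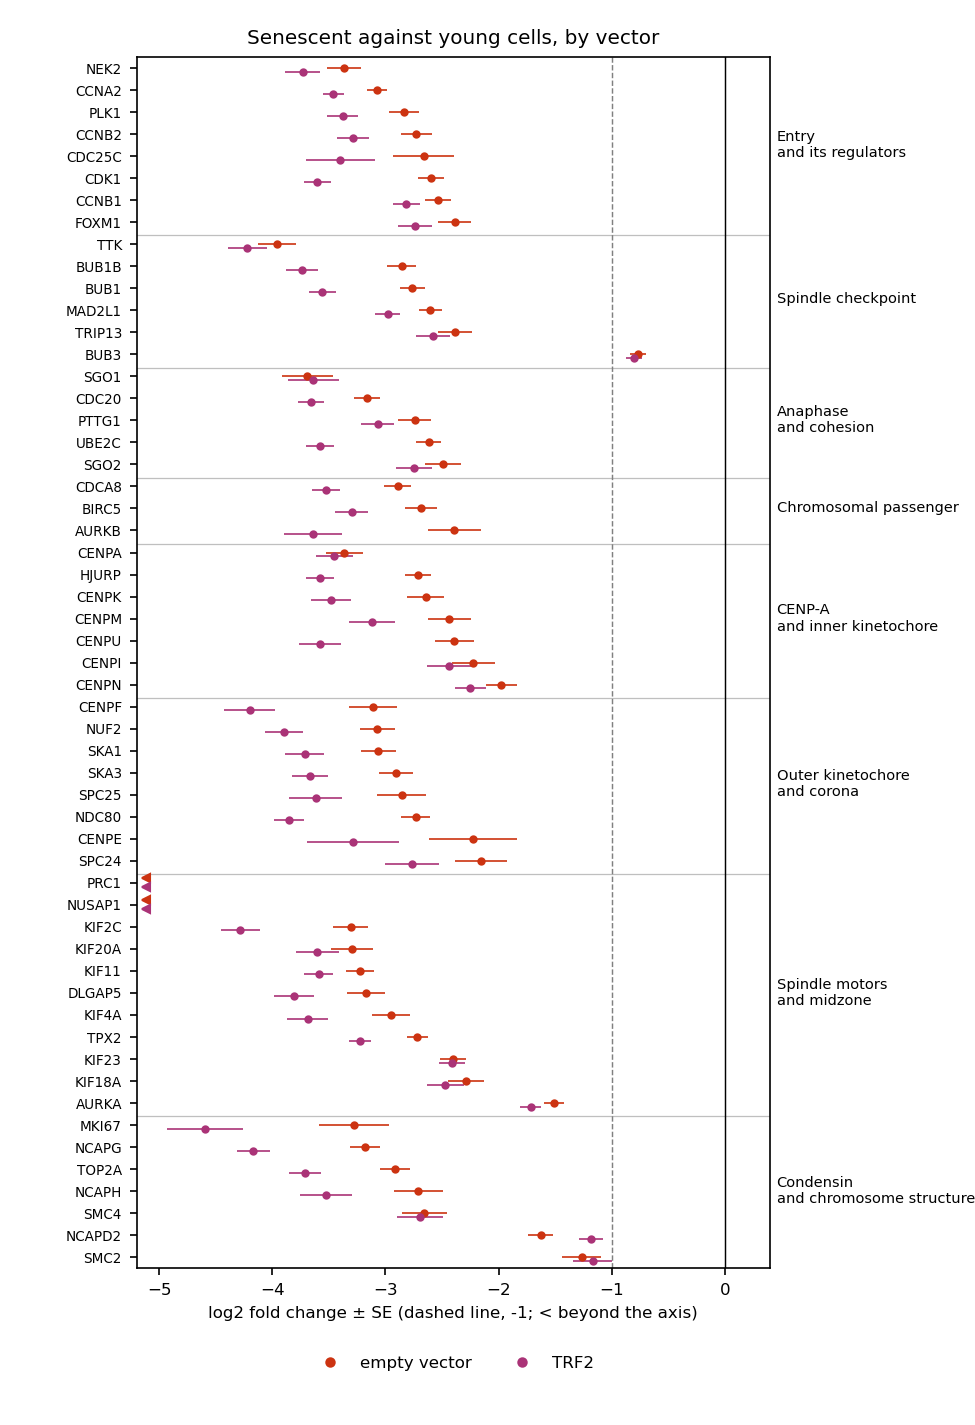
log2 fold change ± SE of senescent against young cells for the 55 genes, by role, with the empty vector (red) and with TRF2 (purple). Purple points lie left of red ones for most genes, BUB3 is right of the dashed line at -1 with both vectors, and PRC1 and NUSAP1 lie beyond the axis.

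The difference between these 2 changes was tested as an interaction, that is, whether the fall with senescence was larger with TRF2. Of the 55 genes, 10 passed at an adjusted p under 0.05, all with the larger fall under TRF2, against 0.956% of all genes in that direction and 0.177% in the other. The median interaction of the 55 was -0.60, beside -0.03 over all genes. CDK1, the kinase of mitotic entry, had the smallest p, with 1515, 1525 and 1529 in young_empty, 271, 252 and 232 in senescent_empty, 1221, 1223 and 1257 in young_TRF2 and 97.5, 83.1 and 123 in senescent_TRF2 (interaction -1.0, SE 0.16, adjusted p = 0.0166). UBE2C, the ubiquitin-conjugating enzyme of the anaphase-promoting complex, stood at 1194, 1115 and 1190.0, then 181, 191 and 197 with the empty vector, and at 987, 898 and 1046, then 93.4, 71.8 and 79.8 with TRF2 (interaction -0.96, SE 0.16, adjusted p = 0.0166). In both genes the young groups lay closer together on the log2 scale than the senescent groups, and the groups overlapped in neither state. The others were NDC80, HJURP, NCAPG, BUB1, CENPU, BUB1B, TOP2A and KIF2C, so the 10 came from 7 of the 8 roles, and the passenger complex had none.

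The count of 10 moved with nearly every library left out and with the model. It was 18, 6 and 12 without each of the senescent_empty libraries in turn, 1, 0 and 7 without each of senescent_TRF2, 3, 0 and 3 without each of young_empty, and 1, 3 and 5 without each of young_TRF2. The median interaction of the 55 stayed between -0.69 and -0.46 in these fits. The counts over all genes moved with it, from 151 lower and 28 higher with every library to 1100 lower and 989 higher without the first senescent_empty library and to 5 and 1 without the second of young_empty. It was 0 when the model held only the 12 libraries compared, where edgeR called 7 of 15481 genes lower. There 32 of the 55 had an unadjusted p under 0.05, beside 2097 of the 15481 genes. The model with all 15 libraries also gave 32 of the 55, beside 15.9% of all genes. DESeq2's Wald test called 16, which kept all 10, and 405 lower over all genes.

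The next comparison asked what followed the loss of lamin B1 in young cells. Relative to young_empty, 50 of the 55 genes were called lower with siLMNB1 and none higher, against 8.06% of all genes called lower and 10.3% called higher. On the adjusted p alone 52 were lower, against 16.1% of all genes. The median log2 fold change was -1.07, or 47.6% of the control level, beside 0.04 over all genes. In 54 of the 55 all siLMNB1 libraries lay below all controls, which held for 27.9% of all genes. The fold changes were close together, with 48 of the 55 between -0.8 and -1.5.

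AURKA fell most, from 2060.3, 2138 and 2017 normalised counts to 736, 613 and 699 (log2 fold change -1.60, SE 0.09, adjusted p = 6.60e-09), and its libraries with siLMNB1 overlapped those of senescent_empty (783, 688 and 711). CCNA2 went from 2400.5, 2422 and 2149.9 to 1032, 1006 and 1064 (log2 fold change -1.17, SE 0.08, adjusted p = 5.29e-08), still well above its senescent libraries. PLK1 went from 1689.8, 1642 and 1624 to 555, 585 and 694 (log2 fold change -1.43, SE 0.12, adjusted p = 3.11e-07). UBE2C had 457, 559.7 and 507 with siLMNB1 (log2 fold change -1.20, SE 0.10, adjusted p = 4.21e-07). PRC1, with 840, 897 and 1354 raw counts against 2146, 2470 and 1904, also fell here, where both groups come from the same deposit (log2 fold change -1.36, SE 0.10, adjusted p = 8.50e-08).

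The 5 genes not called with siLMNB1 follow, named after their values were seen. KIF18A, a kinesin that dampens chromosome movement on the spindle, stood at 552, 549.7 and 556 against 578, 556 and 543 in the control (log2 fold change -0.02, SE 0.14, adjusted p = 0.944). It is the 1 gene of the 55 whose libraries overlapped, although it fell to 128, 130.0 and 85.6 in senescent_empty (log2 fold change -2.29, SE 0.16, adjusted p = 4.27e-09). BUB3 (-0.57, adjusted p = 1.49e-05) and NCAPD2 (-0.54, adjusted p = 0.00101) passed on the p and missed 0.58. AURKB (-0.53, SE 0.21, adjusted p = 0.0657) and CENPE (-0.94, SE 0.36, adjusted p = 0.0551) missed on the p. With offsets for GC content and length all of these but KIF18A were called, and CENPE was also called with only the libraries compared in the model (-0.94, adjusted p = 3.21e-07). In senescence BUB3 and NCAPD2 also fell less than the median of the 55, but so did AURKA, which fell most with siLMNB1. The comparisons with young_empty share its 3 libraries. The comparison of senescent_TRF2 with young_TRF2 shares none with siLMNB1, and across the 53 genes without PRC1 and NUSAP1 the 2 sets of log2 fold changes had a Spearman rho of 0.34, again a description across genes.

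**Figure D4:**
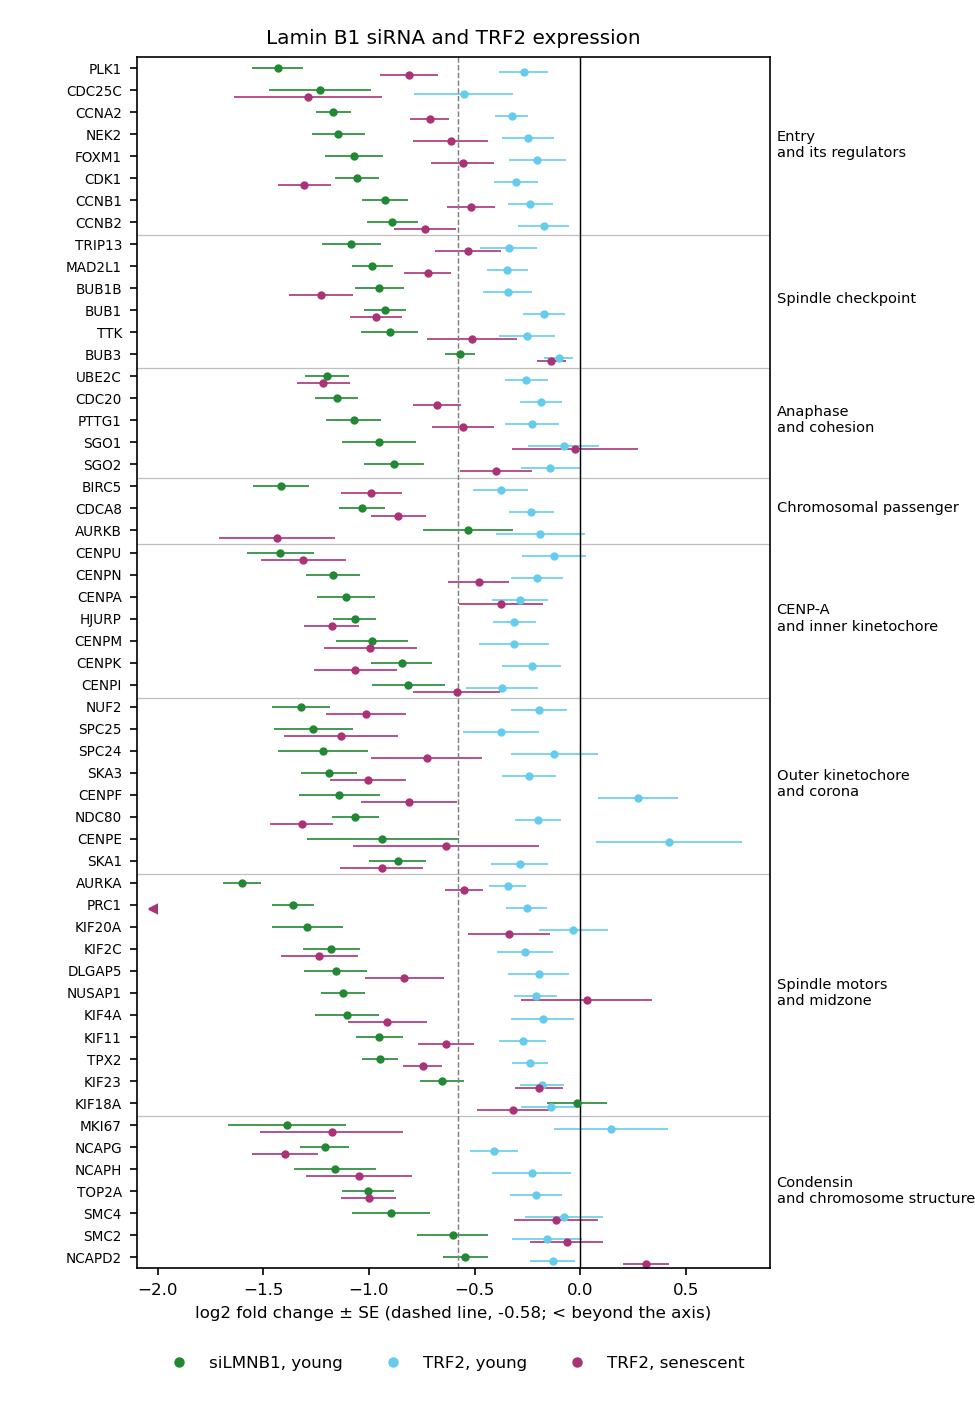
log2 fold change ± SE for the 55 genes, by role, for siLMNB1 against young_empty (green), young_TRF2 against young_empty (light blue) and senescent_TRF2 against senescent_empty (purple). Green points lie between -0.8 and -1.5 for 48 genes with KIF18A near 0, light blue ones lie close below 0 except CENPE, CENPF and MKI67, and PRC1 lies beyond the axis for senescent cells.

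In young cells TRF2 changed no gene of the 55 past the threshold, and edgeR called 0.0127% of all genes lower and 0.152% higher. DESeq2's Wald test also called 0 of the 55. At an unadjusted p under 0.05 there were 20 of the 55, or 36.4%, against 9.66% of all genes. The signs were uneven, with 52 of the 55 below 0 and a median of -0.23, or 85.3% of the control. In 36 of the 55 (65.5%) every TRF2 library lay below every control library, against 12.0% of all genes. CCNA2 stood at 1842, 1751 and 1976 against 2400.5, 2422 and 2149.9 in the control (log2 fold change -0.32, SE 0.08, adjusted p = 0.145). AURKA stood at 1556, 1745 and 1598 against 2060.3, 2138 and 2017 (log2 fold change -0.34, SE 0.09, adjusted p = 0.158), and NCAPG at 786, 855 and 821 against 1117, 1064 and 1088 (log2 fold change -0.41, SE 0.11, adjusted p = 0.192). In all 3 the groups did not overlap and the adjusted p missed the threshold.

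The 3 genes above 0 were CENPE, CENPF and MKI67, named after their values were seen, and in each the second young_TRF2 library stood apart. CENPE, the kinesin of the corona, had 353, 1091 and 344 normalised counts in the 3 young_TRF2 libraries. CENPF had 1861, 3275 and 1776, and MKI67 had 1407, 3569 and 1608. The other two libraries of all 3 lay below the controls or within their range, and without the second library the log2 fold changes were -0.35, -0.07 and -0.39. These are the 3 of the 55 with an exon length over 9000 bases (9928, 12471 and 12845). Over the other 52 the log2 ratio of that library to the mean of the other 2 ran from -0.48 to 0.50 with a median of 0.02, and over all 55 it had a Spearman rho of 0.53 with exon length, 0.45 without the 3. Over the 2980 genes of all those tested that are as long, the median ratio was 0.09, and 7.11% were above 1.5-fold against 7.35% of all genes. That library also had the highest count of TERF2 among the young ones, 9882 against 4127 and 4798. The part of either in the result was not tested.

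**Figure D5:**
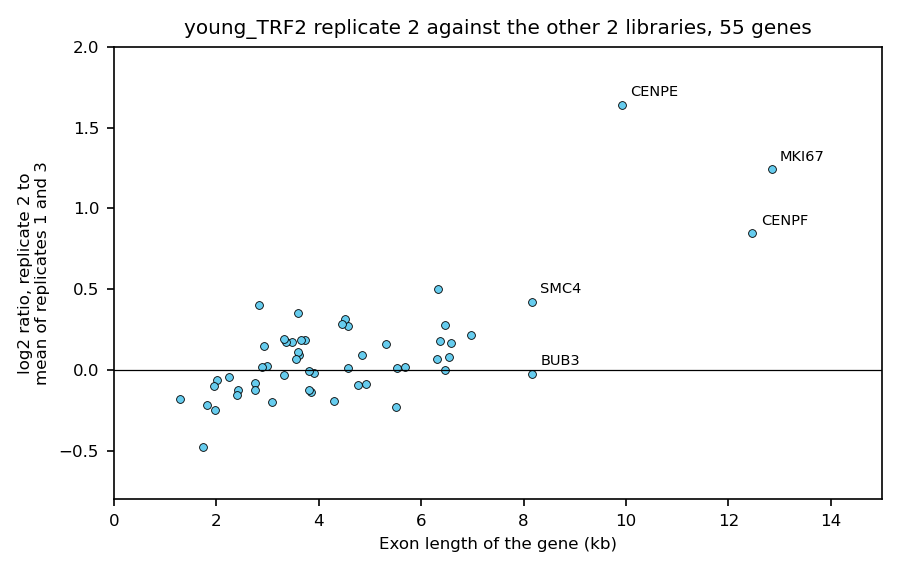
log2 ratio of the second young_TRF2 library to the mean of the other 2 (normalised count plus 1) against exon length in kb, 1 point per gene of the 55. CENPE, CENPF and MKI67 lie at 0.85 to 1.64, and the other 52 genes lie between -0.48 and 0.50.

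In senescent cells with TRF2 33 of the 55 genes were called lower and none higher relative to the empty vector, against 4.30% of all genes called lower and 2.61% called higher. On the adjusted p alone 39 were lower, against 6.41% of all genes. The median was -0.74, or 59.7% of the level with the empty vector, beside -0.02 over all genes. In 41 of the 55 the groups of libraries did not overlap, against 13.9% of all genes. CDK1 went from 271, 252 and 232 normalised counts to 97.5, 83.1 and 123 (log2 fold change -1.31, SE 0.12, adjusted p = 5.23e-05). NDC80 went from 86.2, 88.3 and 105 to 33.9, 34.9 and 43.1 (log2 fold change -1.32, SE 0.15, adjusted p = 1.15e-04), and NCAPG from 126, 129 and 106 to 40.0, 36.9 and 58.7 (log2 fold change -1.40, SE 0.15, adjusted p = 1.04e-04). HJURP had 55.4, 64.6 and 59.6 with TRF2 (log2 fold change -1.18, SE 0.13, adjusted p = 1.04e-04). The levels are low on both sides, and in these 4 the highest TRF2 library lay below the lowest with the empty vector.

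The condensin subunits again differed among themselves in this comparison. NCAPG and NCAPH (-1.05 (SE 0.25, adjusted p = 0.0147)) were called, while SMC2 (-0.06, SE 0.17), SMC4 (-0.11, SE 0.20) and NCAPD2 (0.31, SE 0.11, adjusted p = 0.0742) were not. All 3 passenger genes and 8 of 8 entry genes had an adjusted p under 0.05. These calls come from a model with all 15 libraries. With only the 6 senescent libraries in the model edgeR called 0 of the 53 genes that could be tested and 0 of all 14600 genes lower. The median stayed at -0.74, and 38 of the 53 had an unadjusted p under 0.05, beside 2443 of the 14600 genes. DESeq2's Wald test with all libraries called 35 of the 55 lower, beside 794 of all 15799 genes. Cells with TRF2 were collected at PD 75 and those with the empty vector at PD 71, so TRF2 and the later passage cannot be told apart. Of 10 fibroblast markers, 8 were higher at an adjusted p under 0.05 in senescent_TRF2, beside 770 of all 15799 genes. Their median was 0.51. By the same rule 5 of them were higher and 2 lower with siLMNB1, and 2 were higher in young_TRF2. Relative to young_empty, 2 were higher and 4 lower in senescent_empty. The part of these markers in the result was not tested.

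The other genes of the pathway were taken from 4 lists, whose counts stand beside 11.8% of all genes called lower and 16.7% called higher in senescent_empty, and 8.06% and 10.3% with siLMNB1. With TRF2 the shares were 0.0127% lower and 0.152% higher in young cells, and 4.30% and 2.61% in senescent ones. The TRF2 calls come from the model with all libraries. With only the senescent libraries in it, edgeR called 0 of 14600 genes lower. Of 29 other kinetochore genes, 18 were called lower and 1 higher in senescent_empty, with a median of -1.22. ZWINT, which links the outer kinetochore to the checkpoint, went from 1709, 1599 and 1661 to 363, 372 and 401 (log2 fold change -2.13, SE 0.10, adjusted p = 2.49e-11). CENPT, which bridges DNA to the NDC80 complex, was the 1 called higher (1.12, SE 0.20), and was no longer called with offsets for GC content and length (0.48) or without senescent_empty replicate 3 (0.73). MAD1L1, the checkpoint partner of MAD2L1, had 1 to 6 normalised counts in senescent libraries against 902, 988 and 938 in young_empty, and shares 43.2% of its exonic bases. It is among the 18 called lower, but as for PRC1 and NUSAP1 no fold is given. How its reads were assigned in each deposit was not tested. With siLMNB1 13 of the 29 were called lower, with TRF2 0 in young cells and 3 in senescent ones.

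Of the 16 genes of the anaphase-promoting complex, a ubiquitin ligase present through much of the cell cycle, 3 were called lower and 1 higher in senescence, with a median of -0.21. ANAPC10 was at -1.97 (SE 0.18, adjusted p = 9.82e-08) and CDC23 at -1.05 (SE 0.10, adjusted p = 1.17e-07). ANAPC1 was also called lower, and ANAPC2 was the 1 called higher. With offsets for GC content and length the calls of CDC23 (-0.49), ANAPC1 (-0.92) and ANAPC2 (0.51) were lost, and without senescent_empty replicate 3 those of CDC23 (-0.96) and ANAPC1 (-0.83). The 55 genes thus included the activator CDC20 and the enzyme UBE2C, which fell, while 12 of the 16 subunits and partners of the ligase were not called (on the adjusted p alone 8 were lower and 3 higher). With siLMNB1 2 of the 16 were called lower.

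Of 26 genes that control this programme, 7 were called lower and 3 higher in senescence, the latter a smaller share than among all genes. MYBL2, an activator of mitotic genes, went from 1242, 1082 and 1143 to 134, 161 and 209 (log2 fold change -2.78, SE 0.18, adjusted p = 2.55e-09) and to 551, 539.8 and 737 with siLMNB1 (log2 fold change -0.92, SE 0.17, adjusted p = 5.39e-04). RB1, the retinoblastoma protein, was at -1.02 (SE 0.18, adjusted p = 1.18e-04) in senescence, and CDKN2A, which encodes the inhibitor p16, at 1.20 (SE 0.16, adjusted p = 9.69e-06). Both calls were lost with offsets for GC content and length (-0.43 and 0.75) and without senescent_empty replicate 3 (-0.77 and 0.88). CDKN1A, which encodes p21, was at 0.94 (SE 0.09), under the threshold of 1, with 53128, 53509 and 54050.1 normalised counts in young_empty and 111478, 89239.6 and 107059 in senescent_empty. With siLMNB1 CDKN1A was at 0.18 (SE 0.09, adjusted p = 0.126). The other two called higher were CDKN2B, which encodes the inhibitor p15, and LIN37, a DREAM subunit with few counts in every library, whose call was also lost in both of these fits (1.28 and 1.08). RBBP4 (-1.15, or -0.90 and not called with the offsets) was also called lower, while LIN54 (-0.88), E2F1 (-0.09) and E2F4 (0.48) were not called, and E2F4 turned to -0.14 with offsets for GC content and length.

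Of 14 S phase genes, 12 were called lower in senescence with a median of -1.90 and 8 with siLMNB1 with a median of -0.68. RRM2, a subunit of ribonucleotide reductase, went from 5459, 5292 and 5161 to 781, 669 and 605 (log2 fold change -2.95, SE 0.12, adjusted p = 4.52e-12), and TYMS, thymidylate synthase, from 976, 897 and 931 to 121, 83.5 and 109 (log2 fold change -3.16, SE 0.14, adjusted p = 1.58e-11). CCNE1, cyclin E, stood apart with 0.77 (SE 0.15, adjusted p = 3.65e-04). TRF2 called 0 of the 14 in young cells and 7 lower in senescent ones, the same direction as for the 55 mitotic genes.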

How the data were processed

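RNA-seq of 15 libraries was used. Before deposit the authors had clipped reads in Trimmomatic and aligned them in STAR (build GRCh38), and the deposited values are raw counts, 1 row per gene. Which annotation release and which strand setting they used is not given in the sources used here. Groups came from the labels. Genes were named and measured with GENCODE 44, and 324 genes of the table are absent from it. Counts were filtered (filterByExpr), TMM-normalised and fitted in edgeR 4.0.16 (R 4.3.3) with 1 mean for each of the 5 groups, and tested with the quasi-likelihood test and Benjamini-Hochberg adjustment over 15799 genes. Thresholds followed the study, and that of siLMNB1 (0.58) also served for TRF2 within a state. The interaction had no fold threshold. Level per length was not compared between genes. DESeq2 1.42.0, limma 3.58.1, Python 3.11.15, numpy 2.4.6, pandas 2.3.3 and matplotlib served for alternatives, promoters and figures. The steps were tested on simulated data.

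Total counts of 26725885 to 43116046 a library and 3 libraries a group limit the precision, and the intervals of promoter shares cover counting error only. No columns of the table were left out.

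The members, lists, roles and tests were chosen with earlier results of these data known. The genes named were, in each role, the 2 with the highest mean level and those with the smallest and largest fall in senescence, members not called there, members called in the other comparisons (the 5 with the smallest p where over 10 were called, the 3 where none were), members sharing over 10% of exonic bases, the 2 of each other list with the smallest p, a fixed set of regulators, and genes stated to have been named after their values were seen. Alternatives were the size factors and the Wald test of DESeq2, no filter, only the libraries compared, a replicate block, offsets for GC content and length (loess, span 0.3), no fold threshold, glmTreat, genes sharing no exonic base and each library left out.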

Additional observations from a re-analysis of the deposited data

Results flagged for a closer look

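Of the 55 genes, 10 had a fall with senescence that differed between cells with TRF2 and cells with the empty vector, by the interaction term of edgeR's quasi-likelihood test. The interactions, as log2 differences with negative values for a larger fall under TRF2, were -1.0 for CDK1, -1.12 for NDC80, -0.96 for UBE2C, -0.87 for HJURP and -0.99 for NCAPG. They were -0.80 for BUB1, -1.19 for CENPU, -0.88 for BUB1B, -0.79 for TOP2A and -0.97 for KIF2C. The adjusted p ran from 0.0166 for CDK1 to 0.0479 for KIF2C, and the SE from 0.16 to 0.25. CENPU, a subunit of the inner kinetochore, had the largest of the 10, with 65.9, 103 and 126 normalised counts in senescent_empty and 40.0, 33.8 and 45.0 in senescent_TRF2. KIF2C, a kinesin that takes microtubules apart, had 129, 85.9 and 134 and 43.1, 42.0 and 62.4, and BUB1, a checkpoint kinase, 168, 212 and 162 and 94.4, 95.4 and 87.2. BUB1B had 122, 146 and 117 and 52.3, 59.5 and 52.3. In these 4 the senescent libraries with TRF2 all lay below those with the empty vector. Senescent cells with TRF2 had been grown to PD 75 and those with the empty vector to PD 71, so TRF2 and the later passage cannot be told apart.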

How the results depend on the processing

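The counts of members called lower in senescence and with siLMNB1 stayed within 1.5 times under the alternatives run (with glmTreat they were 53, 52 and 40), apart from genes sharing no exonic base, where fewer members were tested (33) and 32, 32 and 29 were called in the 3 comparisons. The labels do not say whether replicate numbers pair the libraries. Same-numbered libraries had correlations of their deviations from -0.09 to 0.20, 2 of 30 over 0.1. The highest between unlike numbers was 0.08, and these correlations cannot decide whether the libraries are paired. With a replicate block the interaction called 9, with KIF2C lost, and the other counts stayed at 54, 54, 50, 0 and 33. The interaction called 16 with DESeq2's Wald test, 17 with no filter on low counts, 0 with only the libraries compared and 6 with genes sharing no exonic base. Leaving out 1 library gave 0 to 18 lower and 0 to 1 higher. The effect of TRF2 in senescent cells called 0 with only the libraries compared and 8 with glmTreat against the threshold. As the mean log2 ratio in place of the sum, the level was 48.6% in young_siLMNB1, 13.3% in senescent_empty and 7.91% in senescent_TRF2. This mean takes in PRC1 and NUSAP1, which lie far below the other genes in the senescent libraries and lower it there. Before the start alone TTTGAA was found in 44.7%. Signs turned for E2F4 in senescence with offsets (-0.138, with the replicate block -0.137) and in the TRF2 cells (-0.079 and -0.0777), for TERF2 with siLMNB1 (-0.0423 with offsets, -0.0306 with offsets and block) and for KIF18A with siLMNB1 (0.0211 and 0.0216). Leaving out 1 library gave -0.00908 to 0.101 for TERF2 and -0.0334 to 0.0104 for KIF18A with siLMNB1, -0.395 to 0.117 for E2F1 in senescence, -0.309 to 0.0925 for SMC2 and -0.388 to 0.0883 for SMC4 with TRF2 in senescent cells, and -0.35 to 0.696 for CENPE, -0.0652 to 0.431 for CENPF and -0.393 to 0.369 for MKI67 with TRF2 in young cells. Of the values for single genes, 1742 kept direction and side of the threshold, 140 lost the call, 34 gained it and 18 turned. Under 20 counts in a senescent library limit SGO1, CDC25C, SPC25, TTK, PRC1 and NUSAP1, and all comparisons between states carry the difference of deposit.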
